A study of Mus musculus with 2 samples.

Results

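Arnt2, Or13a27, Lilrb4a and Lilrb4b, 4 of the 33696 genes counted, were described in T cells and in myeloid cells of mice with experimental autoimmune hepatitis. They were listed by symbol (ENSMUSG00000015709, ENSMUSG00000060112, ENSMUSG00000112148 and ENSMUSG00000112023 in the files), and they were chosen by their measured KO over WT level in T cells, so that contrast is given as a description and supports nothing. The WT library came from Bicd2fl/fl mice, in which Bicd2 is floxed but Cre is absent. The KO library came from Bicd2fl/fl mice that also carried Cre under the albumin promoter, which acts in hepatocytes and is not expected to act in immune cells. Both groups had been immunized intraperitoneally, once a week and 3 times in all, with 2.5 mg of the S-100 fraction of liver homogenate in complete Freund's adjuvant. A Percoll gradient, red cell lysis and a sort for live cells came before pooling, and the labels give neither the number nor the age of the animals.

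ARNT2 is a bHLH-PAS transcription factor that works as a dimer partner of other members of its family, as ARNT does, and is best known from the nervous system. Or13a27 is an olfactory receptor gene, one of the large family of receptors that detect odorants in the nose. Lilrb4a and Lilrb4b are neighbouring, near-identical genes of the leukocyte immunoglobulin-like receptor family. Lilrb4a (gp49B) carries inhibitory ITIM motifs in its tail, is known from myeloid and mast cells, and binds ligands such as the integrin alphaV beta3. Lilrb4b (gp49A) lacks those motifs. CD4 marks helper T cells and CD8 cytotoxic T cells.

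The 250 bases before the annotated starts of Arnt2 and Or13a27 are shown, and the starts used in T cells were not tested. These windows were chosen because the levels of this pair varied together across clusters of both libraries, although the sequences are unlike. Both are RefSeq promoters on the minus strand of chromosome 7 in build GRCm38.p6, Arnt2 at chr7:84410039-84410288 and Or13a27 at chr7:140345988-140346237, written 5′ to 3′ with CG pairs in capitals.
Arnt2: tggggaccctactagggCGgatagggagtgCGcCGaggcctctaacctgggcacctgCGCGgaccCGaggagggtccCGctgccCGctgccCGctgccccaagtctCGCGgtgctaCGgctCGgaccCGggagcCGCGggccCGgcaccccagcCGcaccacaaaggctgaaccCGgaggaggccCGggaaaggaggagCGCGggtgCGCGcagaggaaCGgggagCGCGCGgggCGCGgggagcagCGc
Or13a27: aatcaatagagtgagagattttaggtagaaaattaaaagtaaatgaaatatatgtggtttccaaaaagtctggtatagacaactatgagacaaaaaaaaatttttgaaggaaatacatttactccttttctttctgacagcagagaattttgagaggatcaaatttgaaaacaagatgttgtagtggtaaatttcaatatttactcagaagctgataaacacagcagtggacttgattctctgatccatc
The Arnt2 promoter held 31 CG pairs at 75.6% G and C, and the Or13a27 promoter held 0 at 30.4%. The median over 32851 mouse promoters of this length was 6 CG pairs and 52.4% G and C. The Lilrb4b promoter (chr10:51480362-51480611, plus strand) held 1 CG pair at 39.2%. Core motifs of bHLH-PAS factors were searched on both strands, and none was in these 3 windows. CACGTG was in 6.02% of all promoters. The hypoxia core, ACGTG, which the former contains, was in 16.6%, and the dioxin core, GCGTG, in 28.2%.

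The WT library held 22197 barcodes and 81159013 UMIs (molecules counted once each), and the KO library 27033 and 63869430. Of these, 20167 and 17675 barcodes passed the filters. The sample labels call the cells peritoneal and tag the treatment HFD, whereas the series text describes liver cells after S-100, and the labels do not settle this. Haemoglobin made up 10.96% of kept UMIs in WT and 22.8% in KO, and 107 kept barcode sequences occurred in both libraries. Bicd2, the targeted gene, was at 19.6 CPM (UMIs counted per 1000000 UMIs of the barcodes concerned) over all kept WT barcodes and 13.1 CPM in KO. Hepatocyte-like barcodes, the cells in which the deletion would act, numbered 54 and 96 with 1 and 4 Bicd2 UMIs, too few to check it. Each group is 1 library, so differences between groups have no replicate check. Every interval printed is a 95% interval for counting error alone.

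T cells were taken as barcodes with at least 2 UMIs of Cd3d, Cd3e, Cd3g, Trac, Trbc1 and Trbc2 together. This gate held 8305 WT barcodes (median 3267 UMIs) and 6558 KO barcodes (median 2407 UMIs). Of these, 63.7% and 61.3% lay in clusters with T-cell markers and 1254 and 342 in myeloid-like clusters, so the gate is not pure. A Cd4 UMI without a Cd8a or Cd8b1 UMI was found in 3211 WT and 1015 KO barcodes (Cd4-only), and the reverse in 849 and 807 (Cd8-only). Barcodes with B-cell transcripts and no T-cell receptor or CD3 UMI, 578 in WT and 1597 in KO, served as the measure of free RNA. That use rests on the untested premise that B cells lack these genes. The gate's rule leaves out B-cell barcodes that caught T-cell receptor or CD3 RNA, so the measure may be too low for T-cell genes. WT barcodes of B-like clusters, chosen without this rule, held 6 Arnt2 UMIs, or 3.91 CPM, and 0 Or13a27 UMIs. For Lilrb4a those barcodes were at 23.4 CPM, and WT plasma-like cells, also of the B lineage, at 49.2 CPM.

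Most Arnt2 of the WT library lay in T cells, and its level was far lower in the KO library. Of its 3070 WT UMIs, 91.5% lay in the T gate and 63.9% in Cd4-only T cells. The WT T gate held 2810 Arnt2 UMIs, or 77.9 CPM (75.02 to 80.8), and the KO T gate 80 UMIs, or 4.07 CPM (3.23 to 5.07). The KO level was therefore 19.1-fold lower (15.3 to 24.2). Signal was spread over many cells: 1926 WT barcodes carried Arnt2, 1267 of them with a single UMI and 265 with 3 or more, and no barcode exceeded 15. In KO, 88 barcodes carried 100 UMIs in all.

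Within WT T cells, Arnt2 followed Cd4. It was at 127 CPM in Cd4-only cells and 12.0 CPM in Cd8-only cells, 10.6-fold apart (8.01 to 14.3), with 43.1 CPM in cells with neither transcript. WT B-gate barcodes were at 5.24 CPM (2.51 to 9.64), near the Cd8-only level, whose interval (8.88 to 15.8) overlapped theirs. In KO, Cd4-only cells held 20 Arnt2 UMIs, or 5.25 CPM, and Cd8-only cells 2 UMIs, or 0.727 CPM, a ratio of 7.22 with an interval of 1.76 to 63.7. The KO B gate held 1 Arnt2 UMI, or 0.235 CPM.

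Or13a27 showed a similar distribution. Its 2125 WT UMIs lay in 1242 barcodes, with 91.5% in the T gate and 66.1% in Cd4-only T cells. The WT T gate held 1945 UMIs, or 53.9 CPM (51.5 to 56.4), against 38 UMIs, or 1.93 CPM (1.37 to 2.65), in KO, 27.9-fold lower (20.2 to 39.5). The level was 90.7 CPM in WT Cd4-only cells, 6.94 CPM in Cd8-only cells (4.65 to 9.96) and 1.05 CPM in the B gate (0.127 to 3.79). Unlike those of Arnt2, the last 2 intervals did not overlap. Cd4-only cells were 13.1-fold above Cd8-only cells (9.06 to 19.6). In KO, Cd4-only cells held 11 UMIs and Cd8-only cells 0 of 807 barcodes with a UMI, which allows a share of up to 0.372%.

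Lilrb4a and Lilrb4b were lower in the KO T gate too, by a smaller factor, and did not favour CD4 cells to the same degree. Lilrb4a was at 129 CPM in the WT T gate (4665 UMIs) and 26.4 CPM in KO (518 UMIs), 4.90-fold lower (4.48 to 5.38). Lilrb4b was at 95.4 CPM (3441 UMIs) and 19.6 CPM (386 UMIs), 4.85-fold lower (4.37 to 5.41). In WT, Cd4-only cells were 1.36-fold above Cd8-only cells for Lilrb4a (133 and 98.1 CPM) and 1.51-fold above for Lilrb4b (105 and 69.6 CPM). Without barcodes that held a myeloid or B marker, the Lilrb4b difference was larger, 1.35 on the log2 scale beside 0.58, and that of Or13a27 was 4.65 beside 3.53. The B gate stood at 55.6 and 38.8 CPM in WT and at 27.2 and 15.5 CPM in KO. The KO T gate thus had no more Lilrb4a than KO B-gate barcodes, which held more myeloid marker RNA (1619 against 880 CPM over 12 markers), while KO barcodes of B-like clusters were at 11.04 CPM. The part of that RNA in the KO levels was not tested. The WT T gate was above the WT B gate for both genes. WT barcodes of B-like clusters were below that gate, at 23.4 CPM of Lilrb4a and 20.8 CPM of Lilrb4b, so the B gate may be too high a floor for them.

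Among 14923 genes with at least 20 UMIs over both T gates, 1.27% were at least 4-fold lower in KO on the log2 scale of CPM plus 1, and all 4 genes were among them. In Cd4-only cells the share was 1.27% of 12795 genes, again with all 4 genes. Since this contrast chose the genes, nothing is read from those counts. With a gate of 1 UMI, or with a pseudocount of 10, Lilrb4a and Lilrb4b were no longer past 4-fold. Between WT Cd4-only and Cd8-only cells, 0.451% of 12863 genes were at least 4-fold higher in Cd4-only cells, and Arnt2 and Or13a27 were 2 of those 58 genes. Lilrb4a and Lilrb4b were not. The genes were chosen with their detection beside Cd4 known, so nothing is read from this count either.

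Shares of barcodes were compared after every barcode had been thinned to 1000 UMIs; 596 WT and 490 KO T-gate barcodes were too shallow for this. In WT Cd4-only cells 14.35% carried an Arnt2 UMI (12.6 to 16.3) and 9.70% an Or13a27 UMI (8.22 to 11.35). In Cd8-only cells the shares were 1.92% and 0.768%, and in the B gate 0.568% and 0.189%. The Cd8-only and B-gate intervals of these thinned shares overlapped for both genes. Without thinning, 34.85% of WT Cd4-only cells carried Arnt2 and 22.5% Or13a27, against 1.56% (0.714 to 2.94) and 0.346% (0.0419 to 1.24) of B-gate barcodes. Unthinned Cd8-only cells, which were deeper than the B gate, were at 4.83% (3.49 to 6.49) and 2.83% (1.82 to 4.18), apart from it for both genes. Thinned KO Cd4-only cells held 1 barcode with Arnt2 and 2 with Or13a27 of 399, and the KO B gate 0 of 1424 for each, which allows up to 0.211%.

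For Lilrb4a the thinned shares in WT were 13.9% of Cd4-only cells (12.1 to 15.75), 11.9% of Cd8-only cells (9.25 to 14.99) and 4.92% of B-gate barcodes (3.24 to 7.13). The Cd4-only and Cd8-only intervals overlapped, and both lay above the B gate. For Lilrb4b they were 10.4%, 5.57% and 4.545%, so that the Cd8-only share, on 29 barcodes, was within the interval of the B gate. Without thinning, WT Cd8-only cells, which were deeper, were apart from the B gate, at 22.6% (19.8 to 25.6) beside 9.17% (6.94 to 11.8). Their Lilrb4b levels were apart too, at 69.6 CPM (61.8 to 78.1) and 38.8 CPM (30.5 to 48.7). In the KO T gate 2.16% of barcodes carried Lilrb4a and 1.78% Lilrb4b, against 2.39% and 1.12% in the KO B gate, with overlapping intervals. Unthinned, the T-gate shares were 33.5% and 26.8% in WT and 6.08% and 4.64% in KO, beside B-gate shares of 12.5% and 9.17% in WT and 4.88% and 3.32% in KO. The plot of these shares by T-cell subset places Arnt2 and Or13a27 together and the Lilrb4 genes apart from them.

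**Figure D1:**
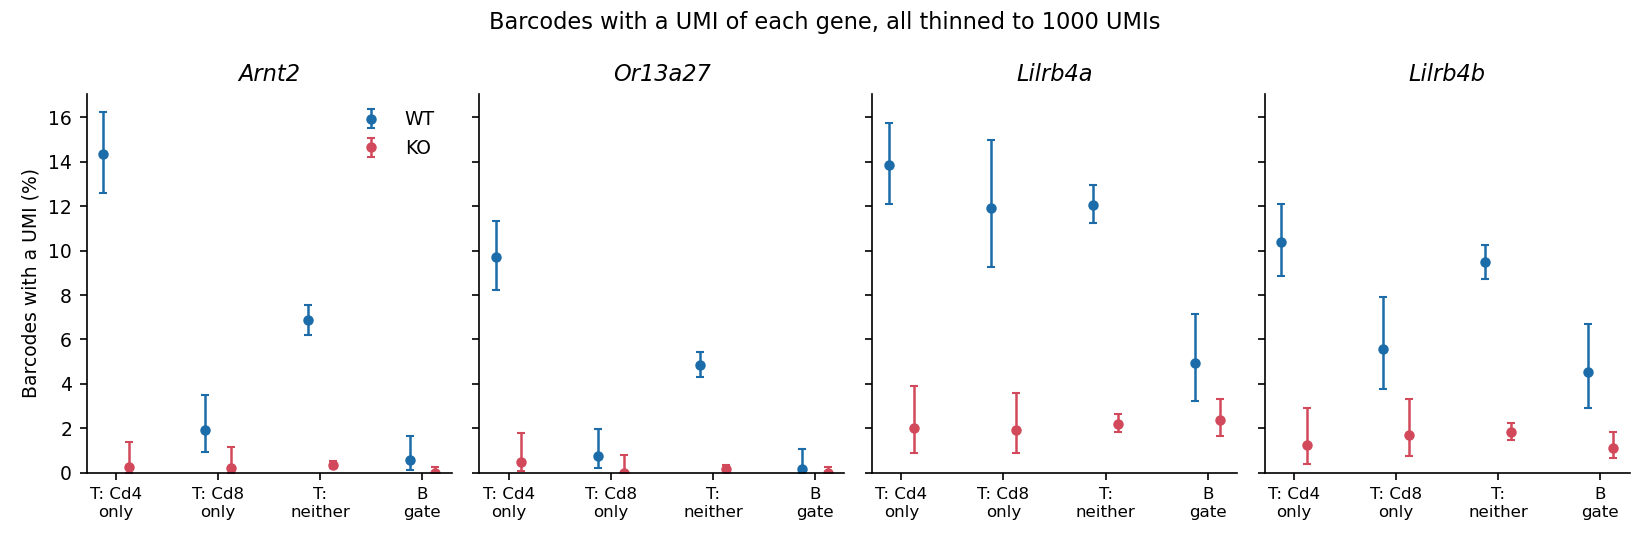
Share of barcodes (%) with at least 1 UMI of each gene after thinning to 1000 UMIs, in WT (blue) and KO (red), for T-gate barcodes by Cd4 and Cd8 UMIs and for the B gate; bars are 95% binomial intervals. Arnt2 and Or13a27 are highest in WT Cd4-only cells (14.35% and 9.70%), while Lilrb4a is at 13.9% in Cd4-only and 11.9% in Cd8-only cells.

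The gate also caught RNA of myeloid cells, in which the Lilrb4 genes are abundant. All 12 myeloid markers checked (among them Csf1r, Fcer1g, Itgam, Lyz2, Spi1 and Csf3r) were detected in both T gates, none at 0, and their summed level was 2717 CPM in WT against 880 CPM in KO. The WT B gate had about as much (2836 CPM) but less Lilrb4a than the T gate. WT T-gate barcodes with a Lilrb4a UMI had more of these markers than those without (3058 and 1991 CPM, thinned), whereas barcodes with Arnt2 had fewer (939 and 2225 CPM), as did those with Or13a27 (894 and 2195 CPM). Among T-gate barcodes without any UMI of these or of the B markers (1193 of 8305 in WT and 3216 of 6558 in KO), Lilrb4a was at 131 and 12.9 CPM and Lilrb4b at 107 and 10.3 CPM. The KO level was then 10.2-fold lower for Lilrb4a (8.17 to 12.8) and 10.4-fold lower for Lilrb4b (8.11 to 13.4). This choice kept a far larger part of the KO than of the WT gate. For Arnt2 it was 28.9-fold (20.2 to 42.6) and for Or13a27 30.75-fold.

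Restricting the gate to T-like clusters gave KO levels 19.5-fold lower for Arnt2, 25.01-fold for Or13a27, 7.15-fold for Lilrb4a and 7.08-fold for Lilrb4b. Leaving out the barcodes called doublets (19.1% of the WT and 14.3% of the KO gate) gave 18.8-, 27.6-, 6.72- and 6.204-fold. The 4 choices of barcodes are drawn side by side in the plot of fold differences.

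**Figure D2:**
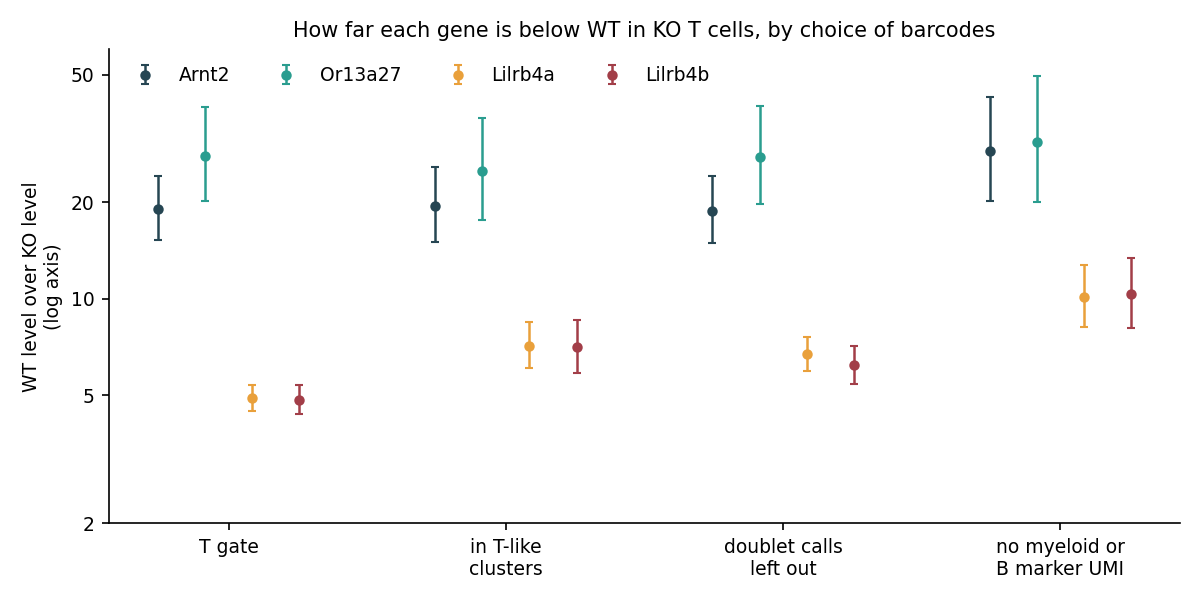
WT level divided by KO level for the 4 genes (log axis) in the T gate, in its barcodes within T-like clusters, without doublet calls, and without any myeloid or B marker UMI; bars are 95% counting intervals. Arnt2 lies between 18.8 and 28.9 and Lilrb4a moves from 4.90 to 10.2.

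Co-detection with Cd4 was read in thinned WT T cells, of which 1470 of 7709 had a Cd4 UMI. Arnt2 was found with Cd4 in 209 of its 611 barcodes, 34.2% (30.5 to 38.1), where the product of the 2 shares gives 116.5, a ratio of 1.79. Or13a27 was found with Cd4 in 143 of 425, 33.65% (29.2 to 38.4), a ratio of 1.765. With Cd8a the ratios were 0.271 (7 barcodes) and 0.278 (5 barcodes). The pair thus met Cd4 more often and Cd8a less often than the product of shares. Lilrb4a met Cd4 in 201 of 953 barcodes, 21.1% (18.5 to 23.8), and Lilrb4b in 150 of 721, 20.8% (17.9 to 23.95), ratios of 1.11 and 1.09. These counts stand as a description of cells from 1 library.

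Arnt2 and Or13a27 shared 66 barcodes where the product of shares gives 33.7, a ratio of 1.96. Within the 1470 barcodes with Cd4 the overlap was 24 and the ratio 1.18, closer to 1. Lilrb4a and Lilrb4b shared 167 barcodes, a ratio of 1.87, and 1.32 within Cd4-positive barcodes. Arnt2 and Lilrb4a shared 95, a ratio of 1.26. In KO, 20 thinned T-gate barcodes of 6068 had Arnt2 and 1 of them Cd4, 11 had Or13a27 and 2 of them Cd4, and 131 had Lilrb4a and 8 of them Cd4. Co-detection could not be judged at those numbers.

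**Figure D3:**
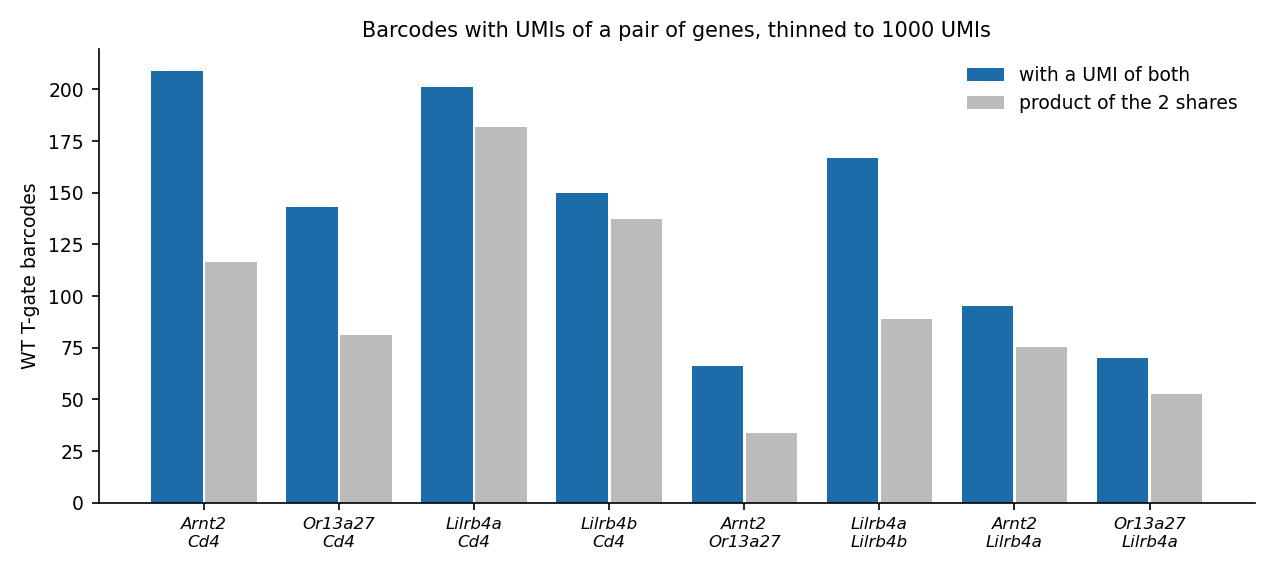
Number of thinned WT T-gate barcodes with UMIs of both genes of a pair (blue) and the number given by the product of their 2 shares (grey). Arnt2 with Cd4 is at 209 against 116.5, and Lilrb4a with Cd4 at 201 against a grey bar nearly as high.

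Clustering without these 4 genes gave 6 T-like clusters, and Arnt2 and Or13a27 were highest in 2 of them. Cluster 2, led by Cd4, Slamf1, Cd5, Rora and Furin once the 4 genes are set aside, held 3316 WT and 141 KO barcodes, 34.9% of the WT and 1.65% of the KO T gate. It held 58.8% of all WT Arnt2 UMIs and 63.1% of all WT Or13a27 UMIs. A cluster so unevenly filled may be the library and not a type. Arnt2 stood there at 187 CPM in WT and 12.3 CPM in KO, where it rested on 3 UMIs, a KO level 15.2-fold lower (5.19 to 73.7). Or13a27 was at 139 and 37.0 CPM (9 KO UMIs), a KO level 3.76-fold lower (1.97 to 8.235). Lilrb4a was at 165 and 41.1 CPM, and Lilrb4b at 138 and 49.3 CPM.

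The KO T gate lay mostly in other clusters: 38.7% was in cluster 0, led by Zbtb16 and Il4 among others, which held 6.38% of the WT gate. There Arnt2 was at 21.8 CPM in WT and 6.84 CPM in KO, 3.19-fold lower (2.015 to 5.04), and Lilrb4a at 67.2 and 15.6 CPM, 4.31-fold lower (3.27 to 5.68). Cluster 4, led by Cd8b1, Lef1 and Ccr7, was low in Arnt2 (11.2 and 0.639 CPM) and in Or13a27 (7.19 CPM and 0 UMIs). Cluster 14, led by the proliferation gene Mki67, had 66.7 and 9.96 CPM of Arnt2. Cluster 20, with Foxp3, the factor of regulatory T cells, among its leading genes, had 118 and 29.1 CPM. For all 4 genes the intervals of the KO over WT ratio lay below 1 in clusters 0, 2, 4, 14 and 20, and in cluster 28 those of the Lilrb4 genes included 1.

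Cluster 28 was small, with 49 WT and 36 KO barcodes, and stood out for Or13a27. Its leading genes included Il23r and the scavenger receptor genes Scart1 and Scart2, Trgc1 was found in 58.8% of its barcodes and Cd4 in 8.235%. Or13a27 reached 332 CPM in WT (60 UMIs, in 59.2% of barcodes) and 176 CPM in KO (19 UMIs, in 33.3%). The KO level was 1.89-fold lower (1.11 to 3.35), and these 19 UMIs were 19 of the 52 that the whole KO library held. Arnt2 was at 194 CPM (35 UMIs) and 46.3 CPM (5 UMIs). The Lilrb4 genes were both at 22.1 and 9.25 CPM there, with intervals that overlap between the libraries. Cluster 28 thus carried Arnt2 and Or13a27 without a Cd4 majority.

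**Figure D4:**
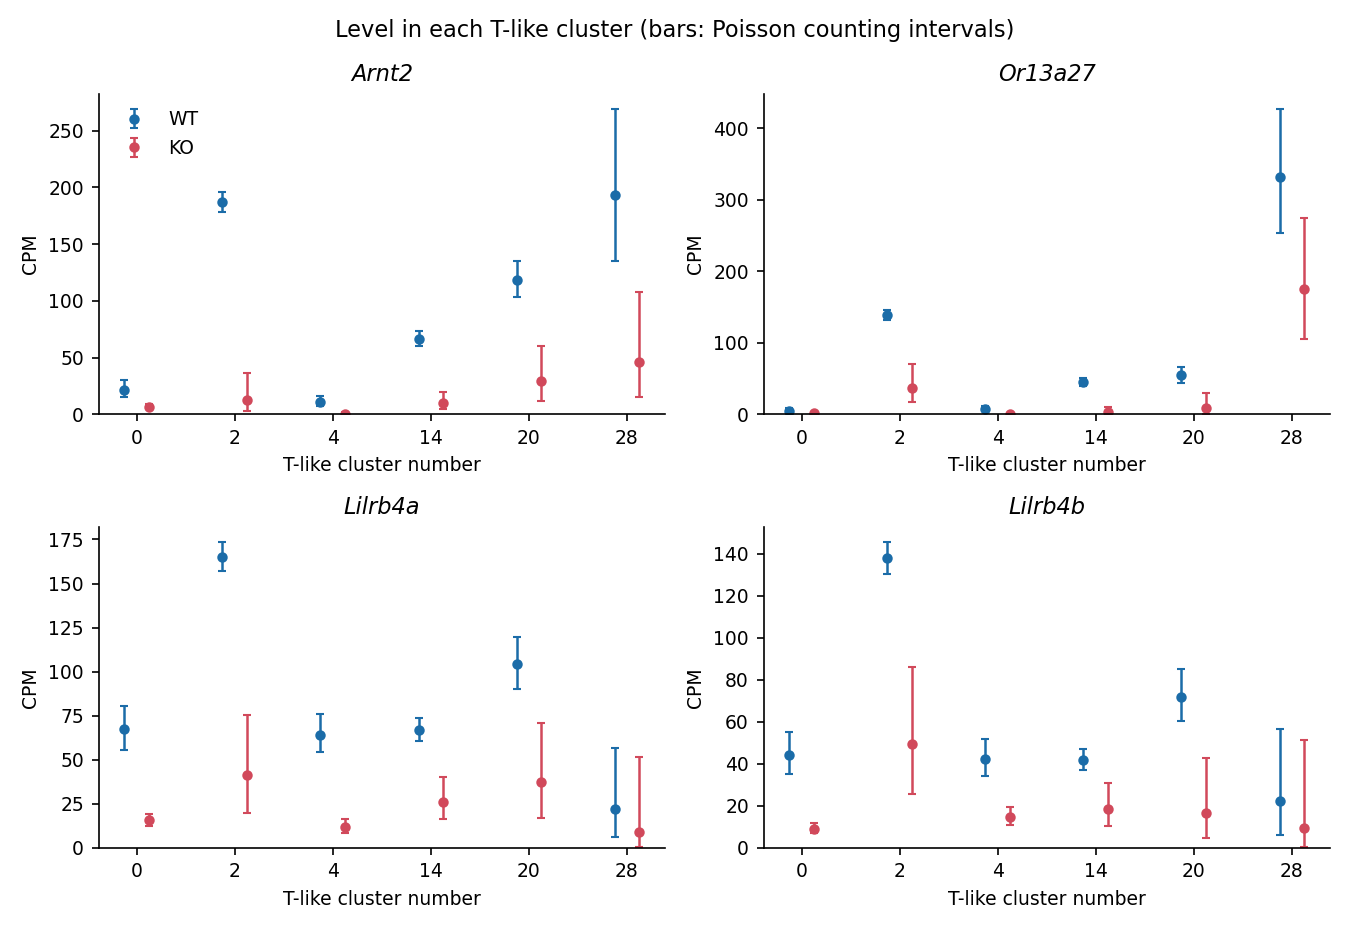
Level (CPM) of each gene in the 6 T-like clusters, WT in blue and KO in red, with 95% Poisson intervals. Or13a27 is highest in cluster 28 in both libraries (332 and 176 CPM), and Lilrb4a in WT cluster 2 (165 CPM).

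Or13a27 made up most of the olfactory receptor signal of WT T cells. Of 1194 annotated olfactory receptor genes 163 had any UMI, and Or13a27 gave 61.2% of the 3179 olfactory UMIs in the WT T gate. The next on its strand in the GENCODE order, Or12j3, had 101 UMIs in the WT and 4 in the KO T gate, and none in cluster 28. In WT cluster 28 that allows up to 16.6 CPM, above the 4.35 CPM of Or12j3 in all WT T-like cells, so nothing is read from it. Or12j2 and Or13a19, on the other side of Or13a27, had 3 and 7 WT UMIs. Scart2 and Scart1, further along on the opposite strand, had 531 and 325 UMIs in WT and 125 and 174 in KO. Scaled to the UMIs of each T gate, Scart2 was at 14.7 CPM in WT and 6.36 CPM in KO. Scart1 was near equal, at 9.01 and 8.86 CPM. Whether reads counted for Or13a27 came from its coding exon or from a longer transcript cannot be told apart from gene totals. The expressed neighbours of Arnt2, Abhd17c (32.2 and 29.6 CPM) and Mesd (23.4 and 18.8 CPM), were near equal between the libraries, and Gm30873, antisense to Arnt2, had 0 UMIs.

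The next comparison set WT T cells with a UMI of a gene beside those without it, both thinned. Of 21 helper effector and follicular genes, 9 were found in a larger share of Arnt2-positive barcodes with intervals apart, among them Maf (39.1% and 18.9%), Icos (24.7% and 14.5%), Cxcr6 (41.9% and 26.5%) and Furin (39.1% and 26.05%), and 1, Tox, in a smaller share. Over all genes, 4.6% were in a larger share by the same rule and 3.28% in a smaller one. The median ratio of the list was 1.35 beside 1.01 over 11376 genes. Of 7 naive T-cell genes, which mark cells that have not met antigen, 5 were in a smaller share, such as Klf2 (4.58% and 11.2%) and Satb1 (17.5% and 25.2%), median 0.538. Within Cd4-only cells 2 of the 21 helper genes kept intervals apart, Icos (31.4% and 21.1%) and Maf (43.0% and 31.0%), beside 0.542% of all genes, and the list's median was 0.995, equal to that of all genes. The other helper genes no longer had intervals apart when CD4 cells were compared with each other, over fewer barcodes (207 with Arnt2). The naive genes kept a median of 0.503 there, with 0 of 7 apart (0.349% of all genes were in a smaller share).

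Of the same lists, 7 of 21 helper genes were in a larger share of Or13a27-positive barcodes, including Furin (44.7% and 26.1%), Cxcr6 (41.4% and 26.9%) and Icos (22.8% and 14.9%), 1 in a smaller share, and 5 of 7 naive genes in a smaller share. Over all genes, 5.04% were in a larger and 2.78% in a smaller share. Within Cd4-only cells 0 of the 21 helper genes were in a larger share and 1, Ctla4 (4.29% and 11.5%), in a smaller one, beside 0.865% and 0.452% of all genes. The list's median was 0.835 there, beside 0.987 over all genes. Over all thinned WT T cells, Zbtb16, the factor of innate-like T cells, was in 1.41% of Or13a27-positive barcodes and 3.803% of the others. This did not hold in every cluster: in cluster 28, the T-like cluster highest in Or13a27, Zbtb16 was in 64.7% of barcodes (both libraries, unthinned). Among the 8 genes most enriched with Arnt2 were Il1rl1, the receptor of interleukin 33 (8.35% and 3.34%), Or13a27, Galm, Ryk and Rbms3, and Galm, Ryk and Rbms3 were also among the 8 for Or13a27, whose list further held Igflr1 (10.35% and 4.01%).

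Lilrb4a-positive and Lilrb4b-positive barcodes carried more myeloid transcripts. Of the 12 myeloid markers 6 were in a larger share of Lilrb4a-positive T-gate barcodes, with Csf3r, the receptor of granulocyte colony-stimulating factor, at 18.15% and 9.07%, and 4 of 12 for Lilrb4b. Over all genes, 2.96% and 3.05% were in a larger share. Trim30b (5.04% and 1.66%), Emilin2, Pilra and Clec4d were among the 8 most enriched genes for Lilrb4a. Cxcr2, the neutrophil chemokine receptor (13.9% and 4.55%), Il1r2 and C5ar1 were among those for Lilrb4b. Of the helper list 2 and 4 of 21 genes were apart, Batf and Furin with both. Within Cd4-only cells none of the 12 myeloid markers was in a larger share with either gene, beside 0.349% and 0.413% of all genes. Fewer barcodes remained there, 200 with Lilrb4a and 150 with Lilrb4b, so the intervals were wider. The median ratio of the myeloid list was 1.17 for Lilrb4a and 0.946 for Lilrb4b, beside 0.982 and 0.987 over all genes. For Lilrb4b 1 marker was in a smaller share.

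The Lilrb4 genes were at their highest in myeloid cells. The KO over WT difference was smaller in neutrophil-, monocyte- and macrophage-like cells than in the T gate, and dendritic-like cells came closer to it. Neutrophil-like cells (4950 WT and 1521 KO barcodes) held 43.3% of all WT Lilrb4a UMIs and 50.5% of Lilrb4b. In WT, Lilrb4a ran from 355 CPM in neutrophil-like cells through 242 in macrophage-like, 228 in classical monocyte-like and 215 in basophil-mast-like cells to 142 CPM in nonclassical monocyte-like cells. The intervals of the macrophage-like, classical monocyte-like and basophil-mast-like levels overlapped. They were followed by NK-ILC1-like cells at 124.5 CPM and T-like cells at 112 CPM, whose intervals overlap, and dendritic-like cells were at 48.2 CPM. B-like and erythroid-like cells were lowest, at 23.4 and 25.2 CPM.

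The order differed for Lilrb4b, which was highest in basophil-mast-like cells at 444 CPM (67 barcodes), followed by 294 CPM in neutrophil-like cells. NK-ILC1-like cells (104 CPM) and T-like cells (86.5 CPM) came next and macrophage-like cells were at 74.1 CPM. Lilrb4a therefore made up 32.6% of the UMIs of both genes in WT basophil-mast-like cells, 54.7% in neutrophil-like and 76.4% in monocyte and macrophage-like cells, and these shares were 32.9%, 51.1% and 77.0% in KO. The T gate was at 57.55% and 57.3%, near the neutrophil-like share, and the B gate at 58.9% and 63.7%. How reads were split between the genes is uncertain, since their longest reference transcripts are 96.6% identical over 1379 aligned bases. Of the 91-base windows of the Lilrb4a transcript, 16.3% were shared with that of Lilrb4b.

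From WT to KO, Lilrb4a was at 224 and 153 CPM in monocyte and macrophage-like cells together, a KO over WT ratio of 0.683, and Lilrb4b at 69.1 and 45.7 CPM, a ratio of 0.6615. Of these, classical monocyte-like cells differed least (228 and 200 CPM of Lilrb4a), and macrophage-like cells more (242 and 147 CPM). Dendritic-like cells were at 48.2 and 24.6 CPM of Lilrb4a and 26.3 and 7.73 CPM of Lilrb4b, the latter 3.40-fold lower (2.23 to 5.38). Plasmacytoid dendritic-like cells were at 51.65 and 16.2 CPM of Lilrb4a and 45.7 and 12.3 CPM of Lilrb4b, 3.18- and 3.71-fold lower. NK-ILC1-like cells went with the T cells, at 124.5 and 29.0 CPM of Lilrb4a and 104 and 20.9 CPM of Lilrb4b. Many of their barcodes were also in the T gate: 462 of 821 WT and 200 of 1044 KO in cluster 7. In cluster 13 they were 572 of 790 and 165 of 317. Neutrophil-like cells went the other way, at 355 and 519 CPM of Lilrb4a and 294 and 497 CPM of Lilrb4b. Within neutrophil cluster 1, which held 2293 WT and 1319 KO barcodes, Lilrb4a was at 613 and 623 CPM and Lilrb4b at 562 and 599 CPM, with ratios whose intervals include 1. The libraries filled the neutrophil clusters unequally: cluster 5, led by Ltf, Ngp and Camp and lower in Lilrb4a (258 and 231 CPM), held 1767 WT and 136 KO barcodes.

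**Figure D5:**
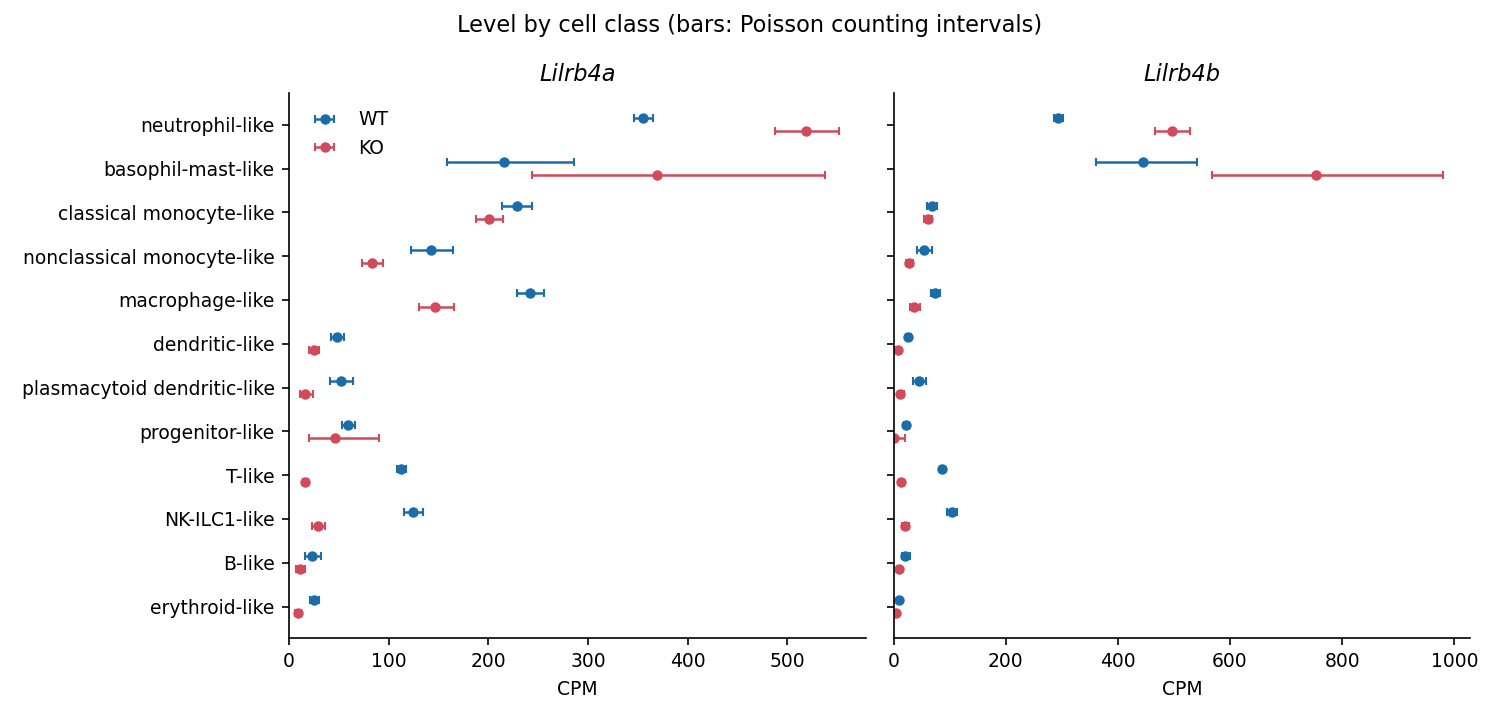
Level (CPM) of Lilrb4a and Lilrb4b in 12 cell classes, WT in blue and KO in red, with 95% Poisson intervals. KO is above WT in neutrophil-like (519 against 355 CPM for Lilrb4a) and basophil-mast-like cells, and below it in T-like and NK-ILC1-like cells.

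Arnt2 and Or13a27 were low in myeloid cells. In WT they were at 6.69 and 2.69 CPM in neutrophil-like cells and 6.03 and 4.85 CPM in monocyte and macrophage-like cells, beside 5.24 and 1.05 CPM in the B gate, with intervals that overlapped the B gate's in each case. Or13a27 lay above the B-gate interval (0.127 to 3.79) in classical monocyte-like cells, at 7.50 CPM (4.98 to 10.84), and in progenitor-like cells, at 5.73 CPM (3.865 to 8.18). In KO, monocyte and macrophage-like cells held 3 Arnt2 and 2 Or13a27 UMIs. Outside T-like clusters, WT NK-ILC1-like cells were at 26.7 CPM of Arnt2 (22.6 to 31.3) and 12.4 CPM of Or13a27 (9.65 to 15.6), both above the B gate. Most of these WT barcodes also passed the T gate (462 of 821 in cluster 7 and 572 of 790 in cluster 13), so the 2 sets overlap. WT hepatocyte-like cells were at 63.4 CPM of Arnt2 (27.4 to 125), on 8 UMIs, and 23.8 CPM of Or13a27, on 3. Of these 54 WT barcodes, 13 also passed the T gate, so they overlap with it too.

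Most relatives and partners of the 4 genes differed less between the T gates. Of 13 bHLH-PAS genes measured in the T gate, Arnt2 alone was at least 4-fold lower in KO. In all, 7 were lower and 6 higher, with a median log2 ratio of -0.07 beside -0.13 over all genes. Arnt, its closest relative, was at 68.8 CPM in WT and 69.3 CPM in KO, Clock at 60.7 and 55.7 CPM, Hif1a, the factor of the hypoxia response, at 210 and 95.0 CPM, and Npas2 at 5.54 and 21.3 CPM. Of 8 LILR and PIR genes measured, the 2 Lilrb4 genes were past 4-fold, 7 were lower and 1 higher, and Pirb, an inhibitory receptor of the same family, was at 59.97 and 27.5 CPM. None of 7 genes that relay ITIM signals was past 4-fold, but 5 were lower and 2 higher, with a median log2 ratio of -0.55. The phosphatase genes Ptpn6 and Ptpn11 were at 125 and 98.7 CPM and at 56.98 and 37.4 CPM, and Inpp5d was at 308 and 318 CPM. The adaptor genes Dok1 and Dok3 were at 23.3 and 15.6 CPM and at 26.2 and 16.9 CPM, and Dok2 was at 79.5 and 87.8 CPM. Of 4 ligand genes, Itgav was at 115 and 66.8 CPM and Itgb3 at 35.4 and 112 CPM. Since all genes share the same 2 libraries, these are descriptions.

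Beside them, 7 of the 21 helper genes were at least 4-fold lower in the KO T gate (Il21, Tox2, Tnfrsf4, Csf1, Furin, Ifng and Ctla4), beside 1.27% of all 14923 genes, 18 of 21 were lower, and the median log2 ratio was -1.07. All 7 naive genes were higher, with a median of 1.16. Cd4 itself was at 210 and 73.9 CPM. The 4 genes were thus lower in a library whose T gate also had less Cd4 and more naive transcripts, and the part of that shift in their levels was not tested. Within Cd4-only cells, Arnt2 was at 127 and 5.25 CPM and Or13a27 at 90.7 and 2.89 CPM, 24.15- and 31.4-fold lower in KO, and Lilrb4a and Lilrb4b were 5.08- and 6.65-fold lower.

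Likeness of pattern was measured as Pearson's r of log2 CPM plus 1 over 52 units, each a cluster in 1 library with at least 50 barcodes, among 11031 genes. The units share their library and its depth. They come from both libraries, so r includes the KO over WT contrast that chose the genes, and r is a description. Or13a27 was the gene most like Arnt2, at 0.900, followed by Ifng (0.867), Susd2 (0.848), Chst2 (0.8395) and Il1rl1 (0.822). For Or13a27, Arnt2 was followed by Chst2 (0.858), Il20ra (0.8275), Ifng (0.817) and Tox2 (0.811). Lilrb4b was the gene most like Lilrb4a, at 0.942, followed by Fpr2 (0.877), Upp1 (0.871), Stx11 (0.853) and C5ar1 (0.852). For Lilrb4b the next were Dgat1 (0.879), Slfn4 (0.862), Hdc (0.855) and Asprv1 (0.855). Arnt2 had an r of 0.262 with Lilrb4a and 0.2795 with Lilrb4b. Likeness within the WT library alone was not measured, so no grouping of the 4 genes is read from these values.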

How the data were processed

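Droplet-based 3′ single-cell RNA-seq gave 2 matrices of raw UMI counts, 1 per group. The authors deposited these counts without normalization. Cell Ranger 8.0.1 made them per the file headers, while Cell Ranger 6.0.1, Seurat 4.3.0 and build mm39 are named per the submitters' processing notes; the handling of intronic and multi-mapped reads is not given in the sources used here.

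Barcodes with under 200 genes (1919 WT, 9283 KO) or over 20% mitochondrial UMIs (111, 75) were left out. Scrublet calls (scanpy 1.11.5; 15.3% and 11.6% of barcodes) were kept, and values without them are given beside. Cells were clustered at Leiden resolution 1 (leidenalg 0.10.2) into 29 clusters, without the 4 genes, and 24 were named from markers. Names were rebuilt here. Levels are UMIs summed per library and scaled to CPM, log2 ratios use CPM plus 1, and scipy 1.17.1 gave exact Poisson, binomial and conditional binomial 95% intervals. A count of 0 is limited at 3 counts. No test across samples exists with 1 library per group, so no p-value is given. Thinning drew 1000 UMIs per barcode. The procedures were tested on simulated data. Beside the 4 genes, genes were named by rank (the 8 most co-detected, the 5 most alike) or from lists. Some list members are not reported here by name. The genes and lists were chosen with earlier results of these data known.

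Scaling by edgeR 4.0.16 and DESeq2 1.42.0 factors in R 4.3.3, other filters, gates and pseudocounts were the alternatives, and leaving out shared barcodes was added after seeing the data. Promoters are from RefSeq (3 of 4 genes matched), and gene order is from the GENCODE annotation of GRCm38, not the build of the files, so no other coordinates are given.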

Additional observations from a re-analysis of the deposited data

Results flagged for a closer look

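The KO over WT ratio of both Lilrb4 genes pointed one way in 2 cell classes and the other way in most others. In neutrophil-like cells it was 1.46 for Lilrb4a (1.37 to 1.56) and 1.69 for Lilrb4b (1.58 to 1.81). In basophil-mast-like cells, 67 WT and 33 KO barcodes, it was 1.717 for Lilrb4a (1.03 to 2.81) and 1.695 for Lilrb4b (1.19 to 2.38). In T-like cells the levels were 112 and 16.3 CPM of Lilrb4a and 86.5 and 12.5 CPM of Lilrb4b. The difference between classes was not tested. Within neutrophil cluster 1 the levels were 613 and 623 CPM of Lilrb4a and 562 and 599 CPM of Lilrb4b.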

How the results depend on the processing

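No paired analysis was possible because each group is 1 library. Of 108 alternative values 76 stayed within the counting interval of the value reported, 32 moved outside it and 0 changed direction. In the T gate, TMM and DESeq2 factors shifted KO levels against WT by 0.145 and 0.158 on the log2 scale. The log2 ratios reported for KO over WT were -3.96 (Arnt2), -4.23 (Or13a27), -2.25 (Lilrb4a) and -2.22 (Lilrb4b). With a pseudocount of 10 they were -2.64, -2.42, -1.94 and -1.83, and Or13a27 was -4.73 with 0.1. Without myeloid or B markers, Arnt2 was -4.55, Lilrb4a -3.25 and Lilrb4b -3.255. For Lilrb4a and Lilrb4b, a gate of 1 UMI gave -1.95 and -1.95 (both short of 4-fold, as with a pseudocount of 10), T-like clusters -2.76 and -2.73, doublets left out -2.68 and -2.55, DESeq2 factors -2.10 and -2.07, and haemoglobin out of the total -2.08 and -2.05. For Lilrb4a, TMM gave -2.11 and leaving out barcodes over 10% haemoglobin -2.12. Cd4-only over Cd8-only in WT was 3.30 (Arnt2), 3.53 (Or13a27), 0.44 (Lilrb4a) and 0.58 (Lilrb4b). With a pseudocount of 10 Arnt2 was 2.64 and Or13a27 2.57, and without myeloid or B markers Or13a27 was 4.65 and Lilrb4b 1.35. Lilrb4a was 0.24 thinned and 0.655 in T-like clusters; Lilrb4b was 0.96 thinned, 0.84 in T-like clusters and 0.78 without doublets. In monocyte and macrophage-like cells Lilrb4a went from -0.55 to -0.375 with haemoglobin out of the total and -0.34 without barcodes over 10% haemoglobin, and Lilrb4b from -0.59 to -0.40 with the latter. The cause of these moves was not tested. With 1 library per group, counting depth limits the precision of each level but cannot speak to the spread between animals.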
